A study of Mus musculus with 6 samples.

Results

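The genes described here carry out the oxidation of fatty acids in mitochondria and peroxisomes, bring fatty acids into the cell and bind or store them there, or are known targets of the nuclear receptor PPARA. The 33 genes were taken by name from the 38561 genes of the count tables, whatever their direction, and all 33 passed the filter on low counts. RNA was read from scraped small intestinal mucosa of C57BL/6J mice aged 8 to 12 weeks, as 6 libraries. In 3 libraries the mice were labelled Rbm47_IKO, a knockout of the RNA-binding protein gene Rbm47 driven in the intestinal epithelium by the villin promoter, and in 3 they were labelled wt. According to the labels, each library held polyA RNA pooled from 3 mice of both sexes, so the values of single mice were not seen. The study's methods describe the controls as floxed mice without Cre, whereas the labels give wild type C57BL/6J, and the 2 were taken as 1 control group.

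Fatty acids enter mitochondria as carnitine esters and are shortened there in a spiral of oxidation, hydration, oxidation and thiolysis, with electrons passed through the electron transfer flavoprotein to the respiratory chain. Peroxisomes run a parallel spiral on very long and branched chains and pass shortened acyl groups on to mitochondria. PPARA, a nuclear receptor activated by fatty acids, pairs with RXR and binds direct repeats of AGGTCA with 1 base between the copies. In the small intestine the pathway is most active in enterocytes, the absorptive cells that take up dietary fat and are also known to oxidize part of it.

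The tables held 31560320 to 38951830 counts per pool. Levels are given as CPM, the counts of a gene scaled to a common library size after TMM normalization. Rbm47 itself stood at 603, 625 and 620 CPM in the pools labelled Rbm47-IKO against 460, 450 and 472 CPM in wt, so that it was higher, not lower, where the label reads knockout. The log2 fold change of Rbm47 was 0.42 (SE 0.10, edgeR adjusted p = 0.0751), and it was called higher by DESeq2 (adjusted p = 0.00105) and by edgeR with library size alone (adjusted p = 0.0473). The count covers the whole gene, and the floxed part was not examined separately, so the deletion is not checked by it. The genotype is therefore given below as labelled, and each direction rests on that label. Of the marker lists, the sum of 12 enterocyte genes was lower in the pools labelled Rbm47-IKO (61588 to 67374 CPM against 71439 to 82193), with no member of the list called. Most of this gap lay in Apob (mean 10378 against 18912 CPM) and Apoa4 (mean 3361 against 6762 CPM). Within that list Apoa4, Apob, Sis and Slc5a1 were lower without overlap, Anpep was higher without overlap, and Vil1, the structural marker of the brush border, overlapped (log2 fold change -0.17). The sum of 6 smooth muscle genes stood apart in pool 3 of those labelled Rbm47-IKO (3302 CPM) and in pool 2 of wt (2803 CPM), against 90.7 to 586 in the other 4 pools. The labelled mix of sexes did not show evenly in the pools. Xist, the RNA of the inactive X chromosome in females, was at 75.6, 258 and 40.3 CPM in the pools labelled Rbm47-IKO and at 1.09, 150 and 0.69 CPM in wt, so that wt pools 1 and 3 had almost none. Ddx3y, Eif2s3y, Kdm5d and Uty of the Y chromosome summed to 139, 53.0 and 144 CPM and to 215, 87.9 and 220 CPM in wt, highest in the same 2 wt pools. The sum of 4 genes of the distal small intestine was higher without overlap in the pools labelled Rbm47-IKO (456 to 616 CPM against 310 to 439), and the sum of 4 proximal genes overlapped (192 to 210 against 134 to 206). Each list held 2 genes higher without overlap, Slc51a and Fabp6 in the distal and Gata4 and Slc40a1 in the proximal list. Most of the distal sum, and of its gap, was Slc51a (mean 431 against 281 CPM in wt). Each list also held 1 gene with a log2 fold change below 0 and overlapping groups, Slc10a2 (-0.47) and Onecut2 (-0.53). Slc10a2 was highest in wt pool 1 (44.3 CPM, against 7.84 to 17.2 in the pools labelled Rbm47-IKO). None of the 8 genes was called.

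The members did not move as a block. Of the 33, 4 fell in the pools labelled Rbm47-IKO at an edgeR adjusted p of 0.05 or less (12.1% of them) and 0 rose, where the same test called 1.25% of all 16425 genes tested lower, 1.45% higher and 2.7% either way. The 4 were Cd36, a fatty acid uptake receptor, Ehhadh and Crot of the peroxisome, and Acadm of the mitochondrion. At an unadjusted p under 0.05 there were 11 members (33.3%, against 16.8% of all genes). The median log2 fold change of the members was -0.13 (quartiles -0.40 and 0.11) against -0.0059 over all genes tested, with 21 members below 0 and 12 above. Counting pools without overlap, 8 members were lower in all 3 pools labelled Rbm47-IKO (24.2%, against 11.6% of all genes) and 6 were higher (18.2%, against 11.7%). The remaining 19 overlapped. In bulk mucosa, fewer cells that use a gene and less of its RNA per cell cannot be told apart. The part in these values of the lower enterocyte sum, which rested mostly on Apob and Apoa4, was not tested. Nor was the part of the higher distal sum. Without pools Rbm47_IKO 3 and wt 2, whose smooth muscle sums stand apart, 3 members were called lower (9.09%, against 0.918% of all genes), and Acadm (adjusted p = 0.0637) was no longer among them. With the log2 of the summed Y-chromosome genes as a covariate, 2 members were called lower, Cd36 and Ehhadh (6.06%, where 0.146% of all genes were lower, 0.213% higher and 0.359% either way). Both fits are among the 9 alternatives other than leaving out 1 pool. Over those 9 the log2 fold change was -0.77 to -0.67 for Acadm and -1.06 to -1.02 for Crot. DESeq2 called 7 members (21.2%, against 7.57% of all genes). Of these 6 were lower (18.2%, against 3.51%), with Etfa and Hsd17b4 added, and Fabp2 was higher (3.03%, against 4.06%).

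**Figure D1:**
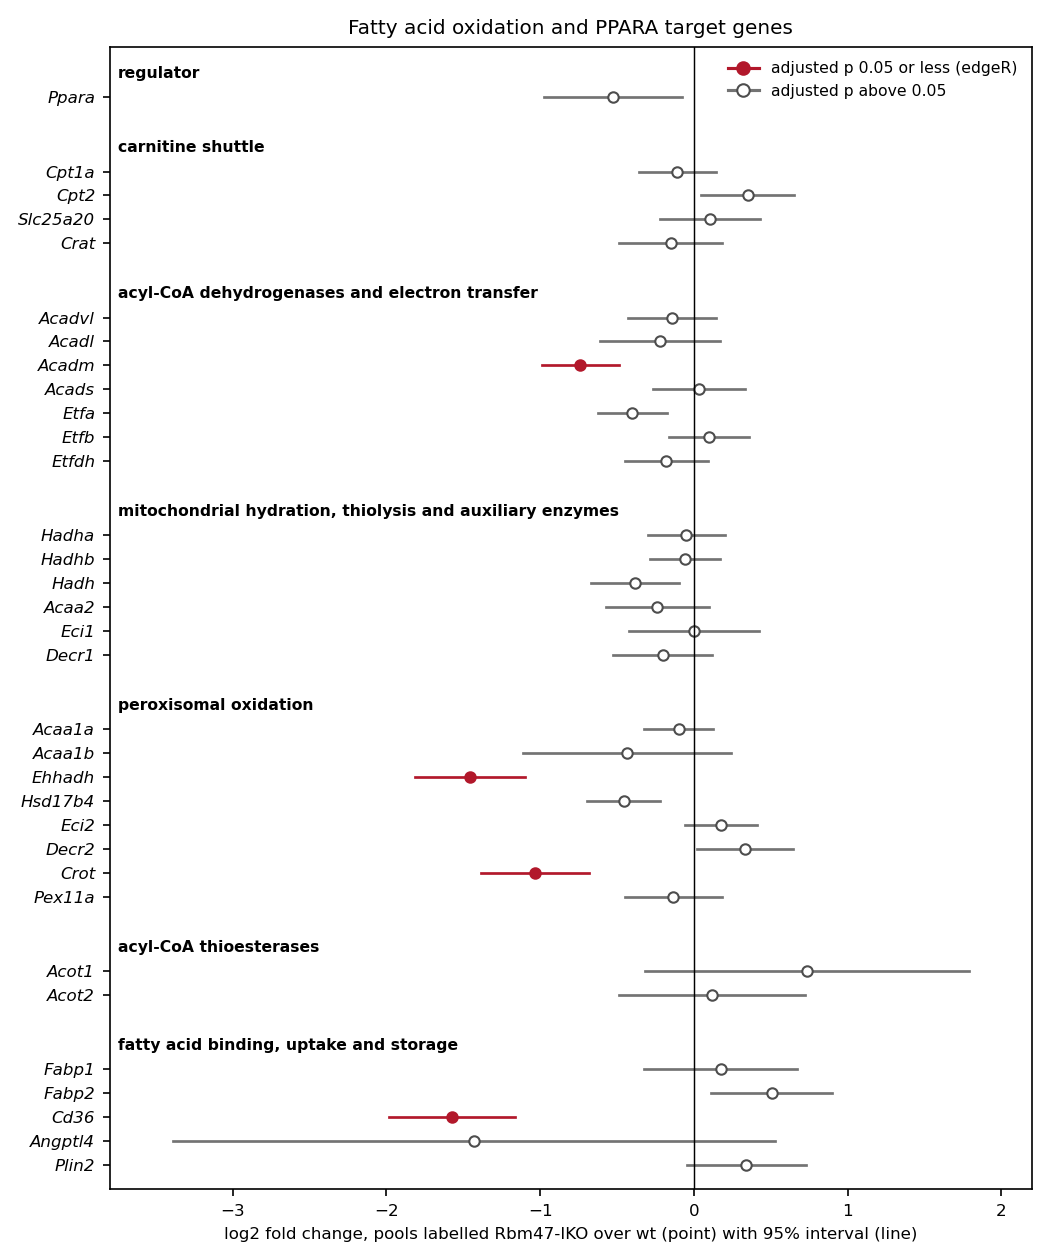
The log2 fold change of each of the 33 genes (point) with its 95% interval (line) is plotted by role, with values below 0 lower in the pools labelled Rbm47-IKO. The 4 filled points, Acadm, Ehhadh, Crot and Cd36, lie between -0.74 and -1.57, and most open points lie near 0.

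Ppara, the receptor itself (15:85734983-85802819, plus strand, GRCm38), was measured at 25.8, 27.5 and 32.8 CPM in the pools labelled Rbm47-IKO and at 51.3, 41.8 and 30.8 CPM in wt. The groups overlapped, because wt pool 3 lay within the range of the labelled knockout pools. The log2 fold change of -0.53 (SE 0.19, 95% interval -0.97 to -0.08) did not pass the adjusted test (edgeR adjusted p = 0.222). Of the related receptors, Ppard, the ubiquitous PPAR delta, was at 122, 115 and 105 CPM against 75.1, 91.7 and 97.7 CPM (log2 fold change 0.37, adjusted p = 0.192). Pparg, the adipogenic PPAR gamma, was at 17.2, 20.0 and 20.4 CPM against 3.79, 10.6 and 14.7 CPM (log2 fold change 0.98, adjusted p = 0.289). Ppard and Pparg were higher in every labelled knockout pool than in any wt pool, and neither passed. Rxra, the common partner of these receptors, had a log2 fold change of -0.0040. Ppard and Rxra were named after their values were seen.

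Promoters were searched for the letters that PPARA and RXR are known to bind, AGGTCA repeated with 1 base between, on both strands and with at most 2 mismatches over the 12 fixed letters. RefSeq windows of GRCm38.p6, from 250 bases before to 50 after the start, were matched to 28 of the 33 members. Angptl4, Crat, Decr1, Acaa2 and Hsd17b4 had no entry. The letters were found in 5 members (17.9%), against 4.40% of the 27025 genes with a window and 7 of 58 other pathway genes (12.1%). The 5 matches are shown because they can be set beside the values of these genes below. Capitals mark the matched bases and lower case the bases on either side, each on the strand of its gene.
Fabp1: atcacTGACCTATGGCCTatatc
Cd36: ttctcTGGCCTCTGACTTacttg
Plin2: tttcaGGACCCCTGACCTaagtc
Etfa: cacccTTACCTTTGCCCTactcc
Slc25a20: aatgtAGGTGAAAGGTCGgcgga
The Fabp1 match (chr6:71199812-71199824) had 1 mismatch and lay 67 to 55 bases before the RefSeq start. Those of Cd36 (chr5:17835947-17835959, 63 to 51 bases before), Etfa (chr9:55512308-55512320, 77 to 65 before), Plin2 (chr4:86670272-86670284, 225 to 213 before) and Slc25a20 (chr9:108662142-108662154, 6 to 18 after the start) had 2 mismatches each. Slc25a20 matched on the gene's own strand and the other 4 on the opposite strand, so that theirs reads as the reverse complement. Of the 4 called genes only Cd36 held a match, and the windows of Ehhadh, Crot and Acadm held none with these letters. The Cd36 window (chr5:17835847-17836146) lay inside the gene, which begins at 17888959 on the minus strand, so its RefSeq start is an inner one. The 5 genes with a match went in different directions in the counts: the fold changes of Cd36 and Etfa were below 0, and those of Fabp1, Plin2 and Slc25a20 above.

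Cd36 (5:17781690-17888959, minus strand) encodes the scavenger receptor that takes up long-chain fatty acids. It fell from 108, 126 and 158 CPM in wt to 49.7, 36.5 and 45.8 CPM in the pools labelled Rbm47-IKO, so that the highest of these lay far below the lowest wt pool. Its log2 fold change of -1.57 (SE 0.18, 95% interval -1.98 to -1.16, edgeR adjusted p = 0.0095) was the lowest among the members with all 6 pools and no covariate. In other alternatives Angptl4 was lower, down to -2.13. The adjusted p rose to 0.0509 without pool Rbm47_IKO 1, 0.0741 without Rbm47_IKO 2 and 0.0504 without wt 3, with fold changes of -1.41 to -1.69 over the 6 pools left out in turn. Cd36 is also known from capillary endothelium, macrophages and fat. The summed markers of those cells overlapped between the genotypes: 15.9 to 29.0 against 18.9 to 48.8 CPM for 6 endothelial genes, 53.2 to 68.9 against 47.3 to 86.0 for 6 macrophage genes, and 4.25 to 47.2 against 4.64 to 35.0 for 6 adipocyte genes. All 6 endothelial genes had a log2 fold change below 0, with a median of -0.38 and none called, and their part in the Cd36 value was not tested.

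Neither of the cytosolic binding proteins was called by edgeR. Fabp2, the intestinal fatty acid binding protein, was at 8383, 8531 and 7693 CPM in the pools labelled Rbm47-IKO and at 6716, 5887 and 4718 CPM in wt. Every labelled knockout pool was above every wt pool (log2 fold change 0.51, SE 0.17), and the edgeR adjusted p was 0.178. DESeq2 called it higher (adjusted p = 0.0138). Fabp1, the liver-type binding protein and a textbook PPARA target, was at 1133, 1377 and 1203 CPM against 756, 1306 and 1230 CPM. Its groups overlapped, and the log2 fold change of 0.17 turned to -0.04 without wt pool 1. Plin2, which coats lipid droplets, was at 61.6, 64.1 and 59.9 CPM against 36.4, 53.0 and 57.0 CPM (log2 fold change 0.34, adjusted p = 0.363).

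Angptl4, a secreted inhibitor of lipoprotein lipase that rises strongly with PPAR activation and fasting, was dominated by 1 pool. It was at 147 CPM in wt pool 1, 6.41 times the next wt pool, and at 23.0 and 11.6 CPM in the other two. The pools labelled Rbm47-IKO were at 16.8, 19.4 and 31.1 CPM, between or above those. The log2 fold change of -1.43 (SE 0.84, adjusted p = 0.463) turned to 0.38 without wt pool 1. Pdk4, the pyruvate dehydrogenase kinase that also rises in fasting, was named after its values were seen. Pdk4 too was highest in wt pool 1 (29.5 CPM, against 9.17 and 7.74 in the other wt pools and 5.75, 8.82 and 19.1 in the labelled knockout pools). That pool also had the highest level of the hepatocyte marker Alb (5.23 CPM, against 0.0823 to 0.49 in the other 5). None of Angptl4, Pdk4 and Alb differed at the adjusted threshold. Of the 6 hepatocyte genes, Apoa2, Serpina1c and Fga were also highest in wt pool 1. Ttr (0.924 against 0.735 CPM in wt pool 1) and Cyp2e1 (5.78 against 3.32 CPM) were highest in pool Rbm47_IKO 2.

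None of the 4 carnitine shuttle genes was called. Cpt1a, the outer membrane carnitine palmitoyltransferase that limits entry of fatty acids, was at 88.7, 94.3 and 86.2 CPM against 105, 87.2 and 97.5 CPM (log2 fold change -0.11, 95% interval -0.35 to 0.14). Its inner membrane partner Cpt2 was at 101, 122 and 95.3 CPM against 90.0, 85.0 and 74.6 CPM. The groups of Cpt2 did not overlap, and the log2 fold change of 0.35 (95% interval 0.05 to 0.65) did not pass (adjusted p = 0.229). Slc25a20, the carnitine acylcarnitine carrier, and Crat, the carnitine acetyltransferase, had log2 fold changes of 0.11 and -0.15 with overlapping groups.

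The acyl-CoA dehydrogenases catalyse the first oxidation and divide the chain lengths among them. Of Acadvl, Acadl, Acadm and Acads, the medium-chain enzyme Acadm was called, and Acad11, a further dehydrogenase given with the other pathway genes, was called as well. Acadm (3:153922357-153944632, minus strand) fell from 97.6, 108 and 112 CPM in wt to 66.7, 66.3 and 57.8 CPM in the pools labelled Rbm47-IKO. Its log2 fold change was -0.74 (SE 0.11, 95% interval -0.99 to -0.49, edgeR adjusted p = 0.0188), a level 1.67 times as high in wt. The adjusted p was 0.0943, 0.122 and 0.0745 without pools Rbm47_IKO 1, 2 and 3, and 0.0678 without wt 3. The very long-chain enzyme Acadvl, the long-chain Acadl and the short-chain Acads had log2 fold changes of -0.14, -0.22 and 0.03, with groups that overlapped. The difference in response between these enzymes was not tested. Reads of Acadvl can be shared with Dvl2 on the opposite strand, which holds 24.0% of the 50-base stretches of its longest coding transcript, and it is not stated whether counting used strand.

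The electron transfer flavoprotein passes electrons from all these dehydrogenases to ubiquinone. Its alpha subunit Etfa was at 39.4, 42.7 and 38.4 CPM in the pools labelled Rbm47-IKO against 52.1, 51.0 and 56.0 CPM, with no overlap. The log2 fold change was -0.40 (SE 0.10, edgeR adjusted p = 0.0792, or 0.0420 with library size alone, DESeq2 adjusted p = 0.0264). The beta subunit Etfb had a log2 fold change of 0.10 and overlapping groups, and 67.3% of the 50-base stretches of its transcript are also found in the gene model Gm45233, so its count is uncertain. Etfdh, the ubiquinone oxidoreductase, had a log2 fold change of -0.18 with a 95% interval of -0.45 to 0.09.

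Of the 6 later mitochondrial enzymes none was called. Hadha and Hadhb, the 2 subunits of the trifunctional protein that handles long chains, were at wt level, with log2 fold changes of -0.05 (95% interval -0.30 to 0.20) and -0.06 (-0.29 to 0.17). The 2 genes lie head to head 85 bases apart, and their RPKM differed 16.2-fold in wt and 16.3-fold in the pools labelled Rbm47-IKO. The level of Hadhb is uncertain, since 61.5% of the 50-base stretches of its longest coding transcript recur in the gene model Gm13910. Hadh, the dehydrogenase for medium and short chains, was at 430, 493 and 400 CPM against 534, 581 and 608 CPM, with no overlap (log2 fold change -0.38, SE 0.12, adjusted p = 0.165). The thiolase Acaa2, the isomerase Eci1 and the dienoyl-CoA reductase Decr1 overlapped between genotypes, at log2 fold changes of -0.24, 0.00 and -0.20.

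**Figure D2:**
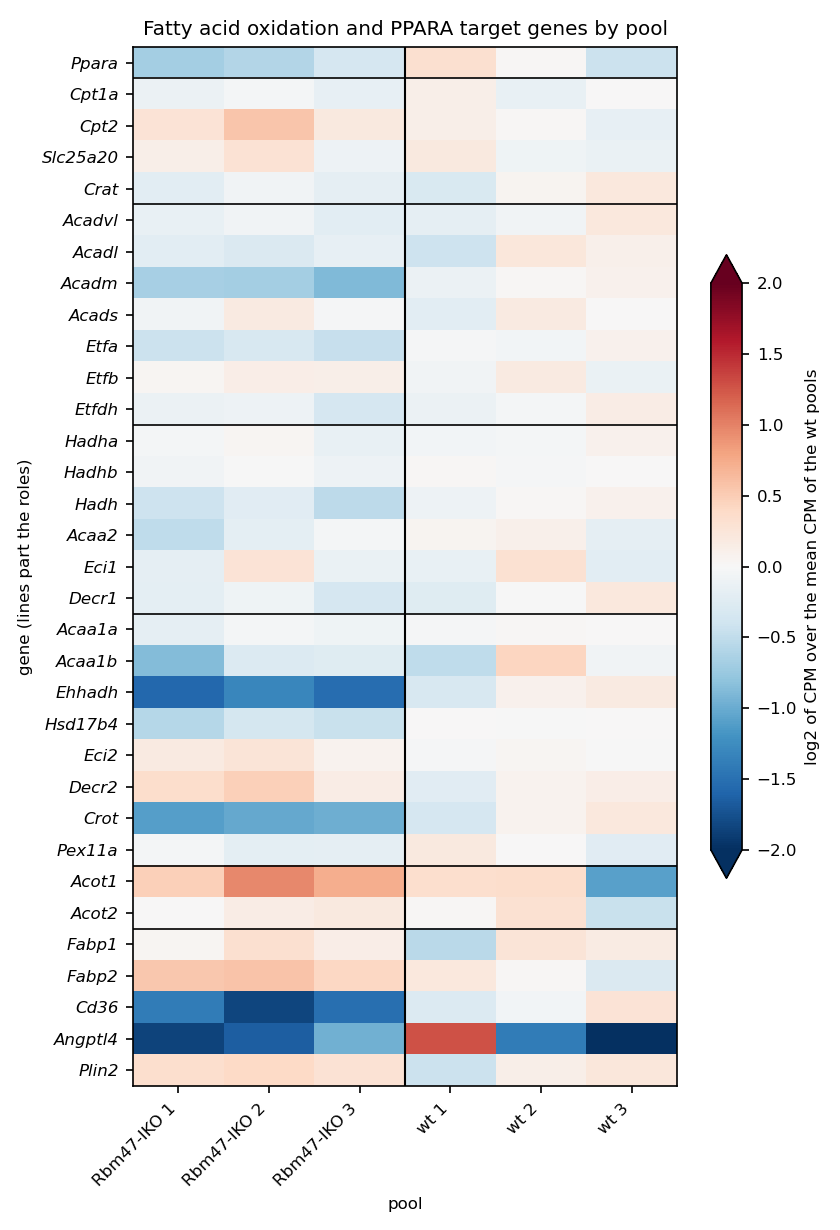
Each row is 1 gene and each column 1 pool, and the colour gives the log2 of its CPM over the mean CPM of the 3 wt pools, with values beyond 2 in either direction drawn at the end of the scale. Ehhadh, Crot, Cd36 and Acadm are blue in all 3 pools labelled Rbm47-IKO, Fabp2 and Plin2 are red there, and Angptl4 is deep red in wt pool 1 alone.

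The peroxisomal genes held 2 of the 4 calls. Ehhadh (16:21761287-21787844, minus strand), the L-bifunctional enzyme that joins hydratase and dehydrogenase and is induced by PPARA ligands, was at 114, 151 and 160 CPM in wt and at 47.8, 57.4 and 49.5 CPM in the pools labelled Rbm47-IKO. It was 2.75 times as high in wt (log2 fold change -1.46, SE 0.15, 95% interval -1.81 to -1.10, edgeR adjusted p = 0.00875). Its adjusted p was 0.0626, 0.0676 and 0.0504 without pools Rbm47_IKO 1, Rbm47_IKO 2 and wt 3. Crot (5:8966033-8997324, minus strand), the carnitine octanoyltransferase that exports medium chains from the peroxisome, was at 147, 195 and 215 CPM in wt and at 86.3, 91.0 and 94.5 CPM in the labelled knockout pools. It was 2.05 times as high in wt (log2 fold change -1.03, SE 0.15, 95% interval -1.39 to -0.68, edgeR adjusted p = 0.0188). Its adjusted p was 0.104, 0.129 and 0.0653 without pools Rbm47_IKO 1, 2 and 3, and 0.0644 without wt 3. In both genes wt pool 1 was the lowest of its group, and leaving it out made the fold change larger, at -1.59 and -1.18.

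Hsd17b4, the D-bifunctional enzyme that serves branched chains and bile acid precursors alongside Ehhadh, was at 150, 175 and 165 CPM against 226, 222 and 225 CPM. Its groups lay well apart, with a log2 fold change of -0.45 (SE 0.10) that edgeR did not call after TMM scaling (adjusted p = 0.0660). DESeq2 called it (adjusted p = 0.00202), and so did edgeR with library size alone (adjusted p = 0.0457). The thiolase Acaa1a was at 192, 211 and 204 CPM against 212, 219 and 218 CPM, lower in each labelled knockout pool by a small margin (log2 fold change -0.10, adjusted p = 0.708). Its near-copy Acaa1b was at 3.35 to 5.18 CPM against 4.32 to 8.22 CPM. The 2 thiolases share 34.0% to 35.5% of their 50-base stretches with each other, so reads may be split between them. The isomerase Eci2 and the dienoyl-CoA reductase Decr2 were higher without overlap, at log2 fold changes of 0.18 and 0.33 (adjusted p = 0.451 and 0.271). Pex11a, a PPARA target that divides peroxisomes, was at 24.8, 22.2 and 22.5 CPM against 29.1, 25.4 and 21.6 CPM. So the 8 peroxisomal genes gave 4 lower without overlap, of which 2 were called, 2 higher without overlap and 2 overlapping, where 11.6% of all genes were lower without overlap, 11.7% higher without overlap and 1.25% called lower.

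**Figure D3:**
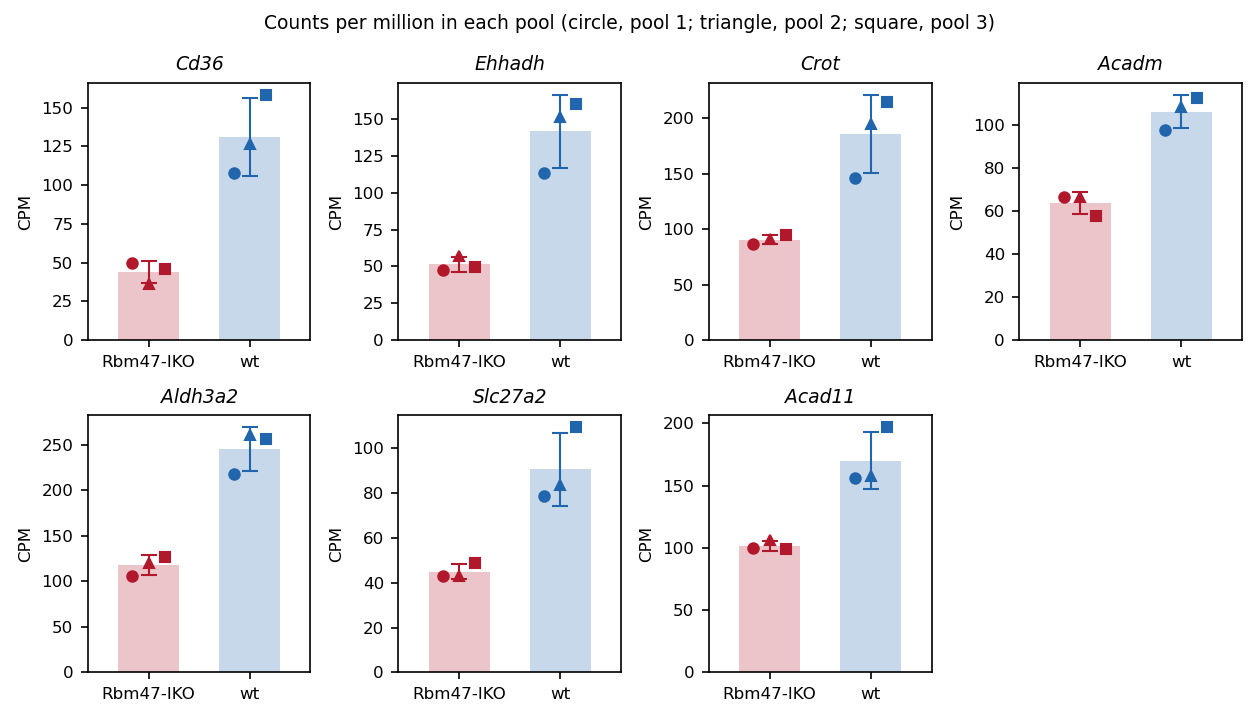
CPM of Cd36, Ehhadh, Crot, Acadm, Aldh3a2, Slc27a2 and Acad11 is plotted for each pool (points), with the mean (bar) and SD (line) of 3 pools per genotype, on axes that start at 0. In each of the 7 panels the 3 pools labelled Rbm47-IKO lie below the 3 wt pools.

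The acyl-CoA thioesterases Acot1 and Acot2, which release fatty acids from CoA in cytosol and mitochondria, were the lowest members. Acot1 was at 0.491, 0.686 and 0.582 CPM against 0.441, 0.448 and 0.165 CPM (log2 fold change 0.74, SE 0.45, adjusted p = 0.486). Acot2 was at 2.69 to 3.06 CPM against 1.98 to 3.32 CPM. The 2 genes share 23.7% to 24.5% of their 50-base stretches with each other, and Acot1 rested on 6 to 26 counts a pool.

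The other genes of these pathways were described by a list of 75, of which 66 passed the filter. Of the 66, 3 fell and 0 rose (4.55%), where 1.25% of all genes were called lower and 2.7% either way. The median log2 fold change of the 66 was -0.0034. Aldh3a2, the fatty aldehyde dehydrogenase, fell from 218, 261 and 257 CPM in wt to 106, 121 and 127 CPM (log2 fold change -1.06, SE 0.12, edgeR adjusted p = 0.0100). Slc27a2, the very long-chain acyl-CoA synthetase and fatty acid transporter FATP2, fell from 78.6, 83.5 and 109 CPM to 43.0, 42.9 and 48.6 CPM (log2 fold change -1.01, SE 0.14, adjusted p = 0.0171). Acad11, an acyl-CoA dehydrogenase of longer chains, fell from 156, 158 and 197 CPM to 99.8, 106 and 99.3 CPM (log2 fold change -0.74, SE 0.12, adjusted p = 0.0264). In each of the 3 the groups were clear of each other. Without pools Rbm47_IKO 1, Rbm47_IKO 2 or wt 3 none of the 3 was called, at adjusted p of 0.0504 to 0.156, and without Rbm47_IKO 3 Aldh3a2 remained at 0.0362 while Slc27a2 was at 0.0570 and Acad11 at 0.0949.

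The next genes of the list did not pass the threshold and were named after their values were seen. Scp2, the peroxisomal thiolase and sterol carrier, was at 123, 128 and 118 CPM against 162, 169 and 191 CPM (log2 fold change -0.50, adjusted p = 0.0547). Lonp2, the peroxisomal protease, was at 86.7, 95.7 and 94.7 CPM against 118, 115 and 130 CPM (log2 fold change -0.39, adjusted p = 0.0945). Abcd3, a peroxisomal acyl-CoA importer, had a log2 fold change of -0.35 (adjusted p = 0.159). Not all peroxisomal genes were lower: Tysnd1, the peroxisomal processing peptidase, had a log2 fold change of 0.30 (adjusted p = 0.141). Of the transporters Slc27a4, the main fatty acid transport protein of enterocytes, was at 2044, 2222 and 1960 CPM against 1411, 1470 and 1649 CPM (log2 fold change 0.46, adjusted p = 0.110), higher in each labelled knockout pool while Slc27a2 was lower.

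Beyond the 3 calls, the genes of the list with the largest fold changes at a mean of at least 1 CPM included Pparg, given above, Plin4, Acox2 and Pecr. Plin4, a lipid droplet protein of adipocytes and muscle, was at 3.38, 8.48 and 22.9 CPM against 4.06, 14.5 and 2.72 CPM, highest in the 2 pools in which the smooth muscle sum was highest. Its log2 fold change of 0.70 was -0.26 without pool Rbm47_IKO 3. Acox2, the oxidase for branched chains, and Pecr, a peroxisomal enoyl-CoA reductase, had log2 fold changes of -0.66 and -0.52 with adjusted p of 0.252 and 0.299. The PPARA targets Cyp4a10 and Fgf21, named after their values were seen, were nearly absent: Cyp4a10 was at 0.318, 0.607 and 0.582 CPM against 0.0294, 0.105 and 0.110 CPM (11, 23 and 19 counts against 1, 4 and 4, adjusted p = 0.0617), and Fgf21 was at 0 in 5 pools.

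The members differed far more in level than between genotypes. On the scale per length (RPKM), wt means ran from 5983 ± 1040 (SD, n = 3) for Fabp2 and 1985 ± 539 for Fabp1 to 0.225 ± 0.104 for Acot1. Hadh followed the binding proteins at 115 ± 7.47 RPKM, then Hsd17b4 at 65.9 ± 0.582 and Hadha at 56.9 ± 3.12. Before the fall in the pools labelled Rbm47-IKO, the called genes were in the middle of the list, with wt levels of 46.9 ± 8.13 RPKM for Ehhadh, 36.2 ± 2.61 for Acadm, 34.0 ± 6.45 for Crot and 33.3 ± 6.43 for Cd36. The last 3 lie within 1 SD of each other when the larger SD of each pair is taken. In the pools labelled Rbm47-IKO they were at 17.1 ± 1.70, 21.7 ± 1.72, 16.6 ± 0.755 and 11.2 ± 1.73 RPKM.

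**Figure D4:**
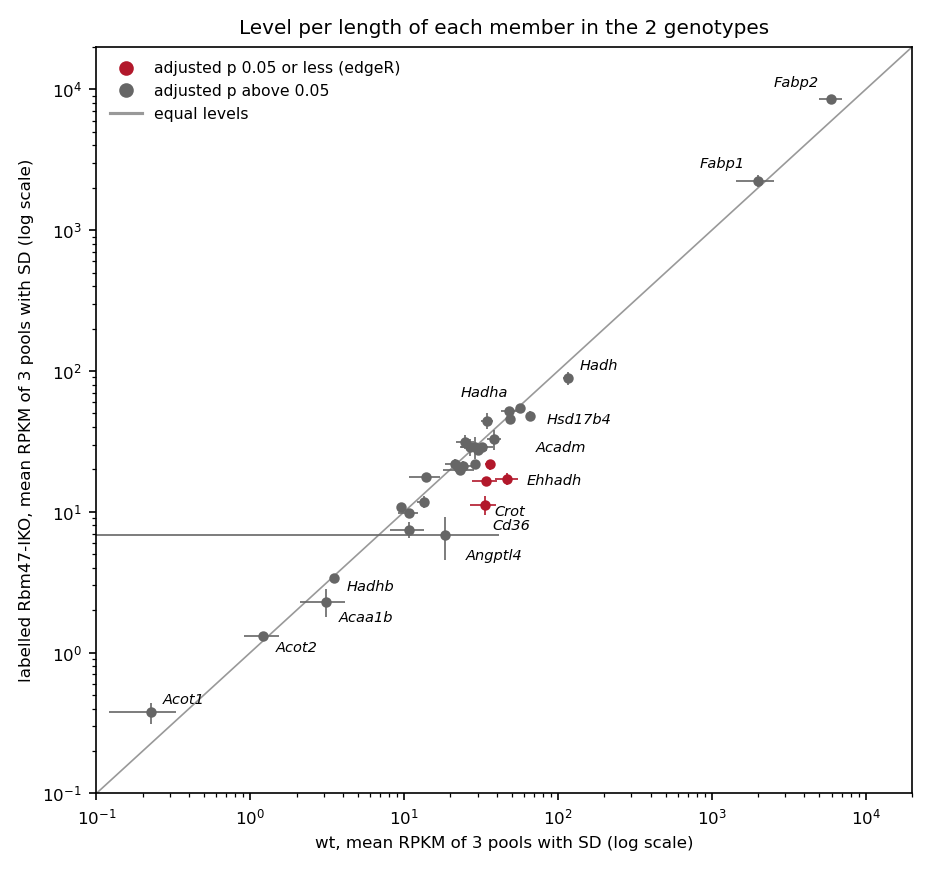
The mean RPKM of each member in the 3 pools labelled Rbm47-IKO is plotted against its mean in the 3 wt pools, both on log axes, with SD as bars and a line of equal levels. An SD larger than the mean runs to the edge of the plot, as for Angptl4, whose wt mean of 18.4 RPKM rests on 1 pool, and the 4 called genes lie below the line at wt levels between 33.3 and 46.9 RPKM.

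The members varied less among the pools labelled Rbm47-IKO than among the wt pools. The median SD of log2 CPM over the members was 0.117 against 0.201, and over all genes tested with a count in every pool 0.192 against 0.261. Pool wt 3 held the highest value of 11 members and the lowest of 9, and pool wt 1 the highest of 6 and the lowest of 7. Among the pools labelled Rbm47-IKO, pool 2 held the highest value of 8 members and pools 1 and 3 of 0. In the pools labelled Rbm47-IKO 23, 20 and 24 of the 33 members were below the wt mean, and in wt 21, 11 and 13. The count in wt pool 1 lay within the range of the labelled knockout pools, so it did not separate the genotypes.

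**Figure D5:**
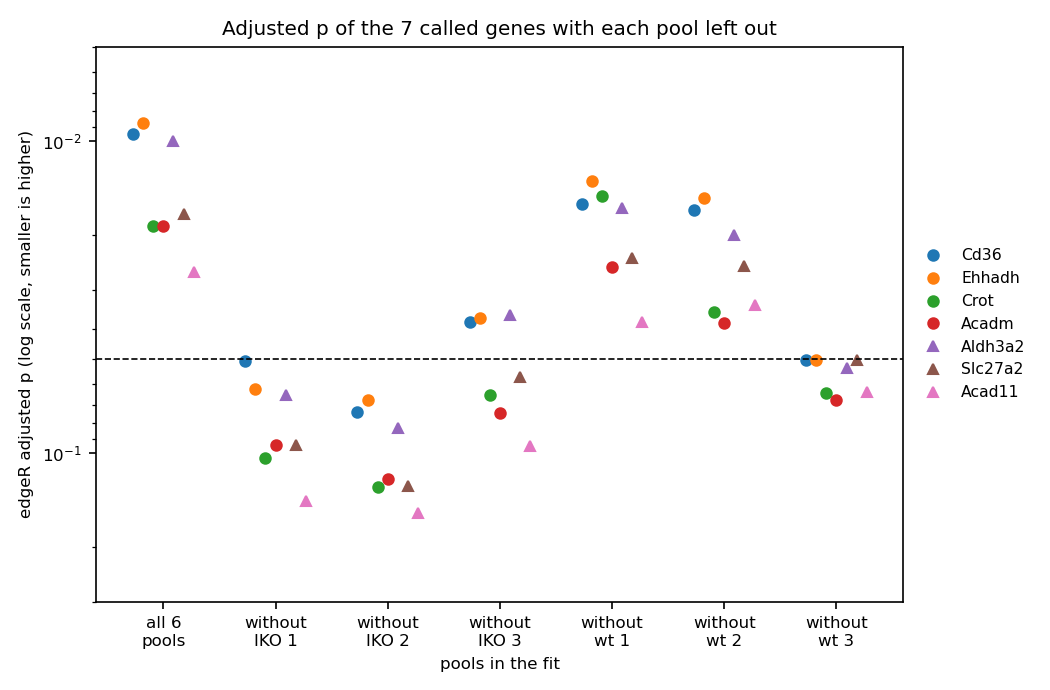
The edgeR adjusted p of the 4 called members (circles) and the 3 called other pathway genes (triangles) is plotted on a log axis with smaller values higher, for all 6 pools and with each pool left out, where IKO stands for the pools labelled Rbm47-IKO. All 7 lie above the dashed line at 0.05 with all pools and without wt 1 or wt 2, and below it without Rbm47_IKO 1, Rbm47_IKO 2 or wt 3. Without Rbm47_IKO 3, Cd36, Ehhadh and Aldh3a2 lie above it.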

How the data were processed

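Libraries were made from polyA RNA of pooled mice and grouped by the genotype in their labels. According to the submitters' processing notes, the authors aligned reads with STAR 2.5.1a to GRCm38 and counted them per gene with featureCounts 1.4.6-p5 (Subread). The authors deposited raw counts per gene for each pool, with CPM and RPKM columns that were recomputed from the counts and not tested. Gene symbols came from GENCODE M21. Rows without a symbol held 0.369% of counts and were tested under their gene ID where they passed the filter. The counts were tested with edgeR 4.0.16 (quasi-likelihood, filterByExpr, TMM; R 4.3.3) over 16425 genes, with Benjamini-Hochberg adjustment, a threshold of 0.05 and no covariate. CPM and RPKM given here use TMM library sizes, and their precision is limited by 3 pools per genotype. An exact permutation test of 3 against 3 cannot go below p = 0.1 and was not used. Alternatives were DESeq2 1.42.0, limma 3.58.1 (voom), other scalings and filters, a Y-linked covariate, the replicate number as a block, and leaving out pools. The script was tested on simulated counts. No pool was a copy of another (2.35% to 2.86% of values identical in any pair, chi-square per degree of freedom of 25.8 or more). The study's methods allow more mice per pool than the labelled 3 and call them separate mice. Beyond this nothing says whether mice were independent between pools, and p-values measure the spread between pools only. Named were all members, the other pathway genes called, the 6 largest beyond them with a mean of at least 1 CPM, and Rbm47, of which some other pathway genes are not reported here. The members and lists were chosen with earlier results of these data known.

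Summed CPM of the marker lists not given in the report were, in the pools labelled Rbm47-IKO and in wt, 56.6 to 113 and 94.9 to 153 for B and plasma cells, 108 to 158 and 123 to 170 for T cells, 0.26 to 16.9 and 0.184 to 0.353 for pancreatic acinar cells, and 2.08 to 7.55 and 1.51 to 11.0 for hepatocytes.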

Additional observations from a re-analysis of the deposited data

How the results depend on the processing

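With 3 pools per genotype, calls depended on which pools were used. Leaving out 1 pool gave 0 to 431 genes called, 0 to 4 members and 0 to 4 other pathway genes. Without pool Rbm47_IKO 2 edgeR called 0 genes, with 1729 at an unadjusted p under 0.05, and the count was 32 without Rbm47_IKO 1, 119 without Rbm47_IKO 3 and 11 without wt 3. DESeq2 called 1243 genes, 7 members and 10 other pathway genes, of which 8 were lower and 2 higher. The Y-linked covariate left 59 genes, 2 members (Cd36 and Ehhadh) and 1 other pathway gene. Scaling by library size alone gave 614 genes, 6 members, with Etfa and Hsd17b4 added, and 6 other pathway genes (5 lower and 1 higher). A filter of at least 1 CPM in 3 pools gave 550 of 13425 genes and 5 other pathway genes. The cause was not tested. Replicate numbers did not pair the pools (correlations of 0.408, -0.00258 and -0.277). With the replicate number as a block 100 genes and 2 members were called. Acadm (adjusted p = 0.0733), Crot (0.0530) and Acad11 (0.0808) were not, at log2 fold changes of -0.74, -1.02 and -0.73. The median of the members stayed between -0.156 and -0.0762 under every alternative. Fold changes near 0 changed sign: Eci1 was -0.0130 with library size alone, -0.00167 with the stricter filter and -0.215 with the Y-linked covariate, and Acads was -0.0811 with that covariate. Over the pools left out, the ranges were -0.156 to 0.184 for Eci1, -0.0611 to 0.133 for Acads, -0.0973 to 0.00262 for Hadha, -0.257 to 1.77 for Plin4, -0.0352 to 0.319 for Fabp1, -1.92 to 0.379 for Angptl4 and -0.0569 to 0.304 for Acot2. None of the 7 called genes (Cd36, Ehhadh, Crot, Acadm, Aldh3a2, Slc27a2 and Acad11) changed direction under these alternatives. Depth limits Acot1, with 6 to 26 counts a pool.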
